A study of Drosophila melanogaster with 11 samples.

Results

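The genes of chromosome 4 of Drosophila melanogaster were followed gene by gene in larvae of 3 genotypes and both sexes. A gene was taken as a member when the RefSeq gene table placed it on chromosome 4 and a probeset of the array was assigned to it alone. Each gene was read from its probeset with the highest mean log2 value over all 11 arrays. This gave 65 genes of the 11983 genes that had such a probeset. The gene table lists 114 genes on the chromosome, of which 80 are protein-coding, so the genes without such a probeset were not analysed here.

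Chromosome 4 is the smallest chromosome of the fly, and most of its genes lie in chromatin that carries marks of heterochromatin and yet are transcribed. HP1 (heterochromatin protein 1) binds histone H3 methylated at lysine 9 and coats much of the chromosome, where the methyltransferase encoded by egg places this mark. POF, the product of Pof, binds the transcribed genes of chromosome 4 in both sexes and raises their output, and HP1 and POF are known to act on the same genes. The chromosome encodes regulators of body patterning and eye development, synaptic proteins, TGF-beta ligands and regulators of translation.

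Whole third-instar larvae were profiled by total RNA on Affymetrix arrays, and the study's title names a sex-specific role of HP1. P/act-Gal4 larvae (y w; +/+; +/P-act in the labels) carried line HP1-21, written P here, together with act-Gal4, in which an actin promoter drives the yeast activator Gal4. They were measured on 2 male arrays and 1 female array. The act-Gal4 control (y w; +/+; +/act-Gal4) and the P control (y w; +/+; +/P), each with 1 of these insertions, had 2 male and 2 female arrays apiece. The groups follow the sample titles. Strain and description labels conflict with the titles for some arrays. P is read here as the HP1-21 line of the study's design text, and the insertion itself is not described further in the sources used here. All larvae shared the y w background, and each array held RNA of a population of larvae, with 2 independent populations stated and no label that ties an array to one of them. P-values therefore measure the spread between arrays only.

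Values are RMA intensities on the log2 scale. A level at or below 3.99, the highest of the array medians, is called dim, and no background level was measured. As a check, the 7 measured Y-linked genes, which females lack, lay between 2.13 and 3.27 on the female arrays, and 0 of them passed in either sex. Of the 65 genes, 42 had a mean over all arrays above the dim level and 23 did not. The median absolute difference between the 2 replicates of a group over the 65 genes was 0.14 in P/act-Gal4 males, 0.067 in act-Gal4 males, 0.092 in P males, 0.082 in act-Gal4 females and 0.13 in P females. The larval markers Lsp2, Fbp1 and Sgs3 lay at 11.30 or above on every array. With both insertions Sgs3 was lower in males, at -0.26, and Fbp1 and Sgs3 were higher in females, by 0.86 and 0.46. These changes depended on the control. In males Sgs3 changed by -0.036 against the P control alone and by -0.47 against the act-Gal4 control alone. In females Fbp1 and Sgs3 changed by 1.59 and 0.84 against the P control alone. Against the act-Gal4 control alone the female changes were 0.13 and 0.072. The part of these markers in the results was not tested. The genes roX1 and roX2, which mark males, had no single-gene probeset. The 3' minus 5' difference of the eIF4a control probesets, a sign of RNA integrity or labelling, moved with genotype and sex. Its group means were 3.69 in P/act-Gal4 males, against 4.32 in act-Gal4 males and 4.97 in P males. They were 3.47 in P/act-Gal4 females, against 4.22 in act-Gal4 females and 3.95 in P females. Its part in the results was not tested.

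HP1 mRNA was checked first. The HP1 gene averaged 7.68 in P/act-Gal4 males, against 8.37 in act-Gal4 and 8.05 in P control males, and fell by 0.53 ± 0.0943 (SE; adjusted p = 0.00124). On the P/act-Gal4 female array it was 8.02, against 8.03 in act-Gal4 and 8.01 in P control females. The difference in the males was thus not seen on the female array, and the male change differed from the female one by -0.53 (adjusted p = 0.0467).

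In males with both insertions, 32 of the 65 chromosome 4 genes were higher than the mean of the 2 controls and 2 were lower. Over all genes, 19.7% were higher and 16.8% were lower in the same comparison. The median change was 0.23 on the log2 scale on chromosome 4 and -0.012 over all genes, and 51 of the 65 genes lay above 0 (78.5%, against 48.1% of all genes). Most rises were modest, with 9 at least 1.5-fold and 1, Zip102B, at least 2-fold. The calls come from limma's moderated test with Benjamini-Hochberg adjustment over all 18769 tested probesets, at an adjusted p under 0.05. In bulk larval RNA, a change in the share of cells that express a gene cannot be told apart from a change of RNA per cell. Without the second P/act-Gal4 male array, 16 genes were higher and 2 lower (12.0% and 10.9% of all genes). With both control genotypes pooled into 1 group, 17 were higher and 0 lower (9.21% and 7.51% of all genes).

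**Figure D1:**
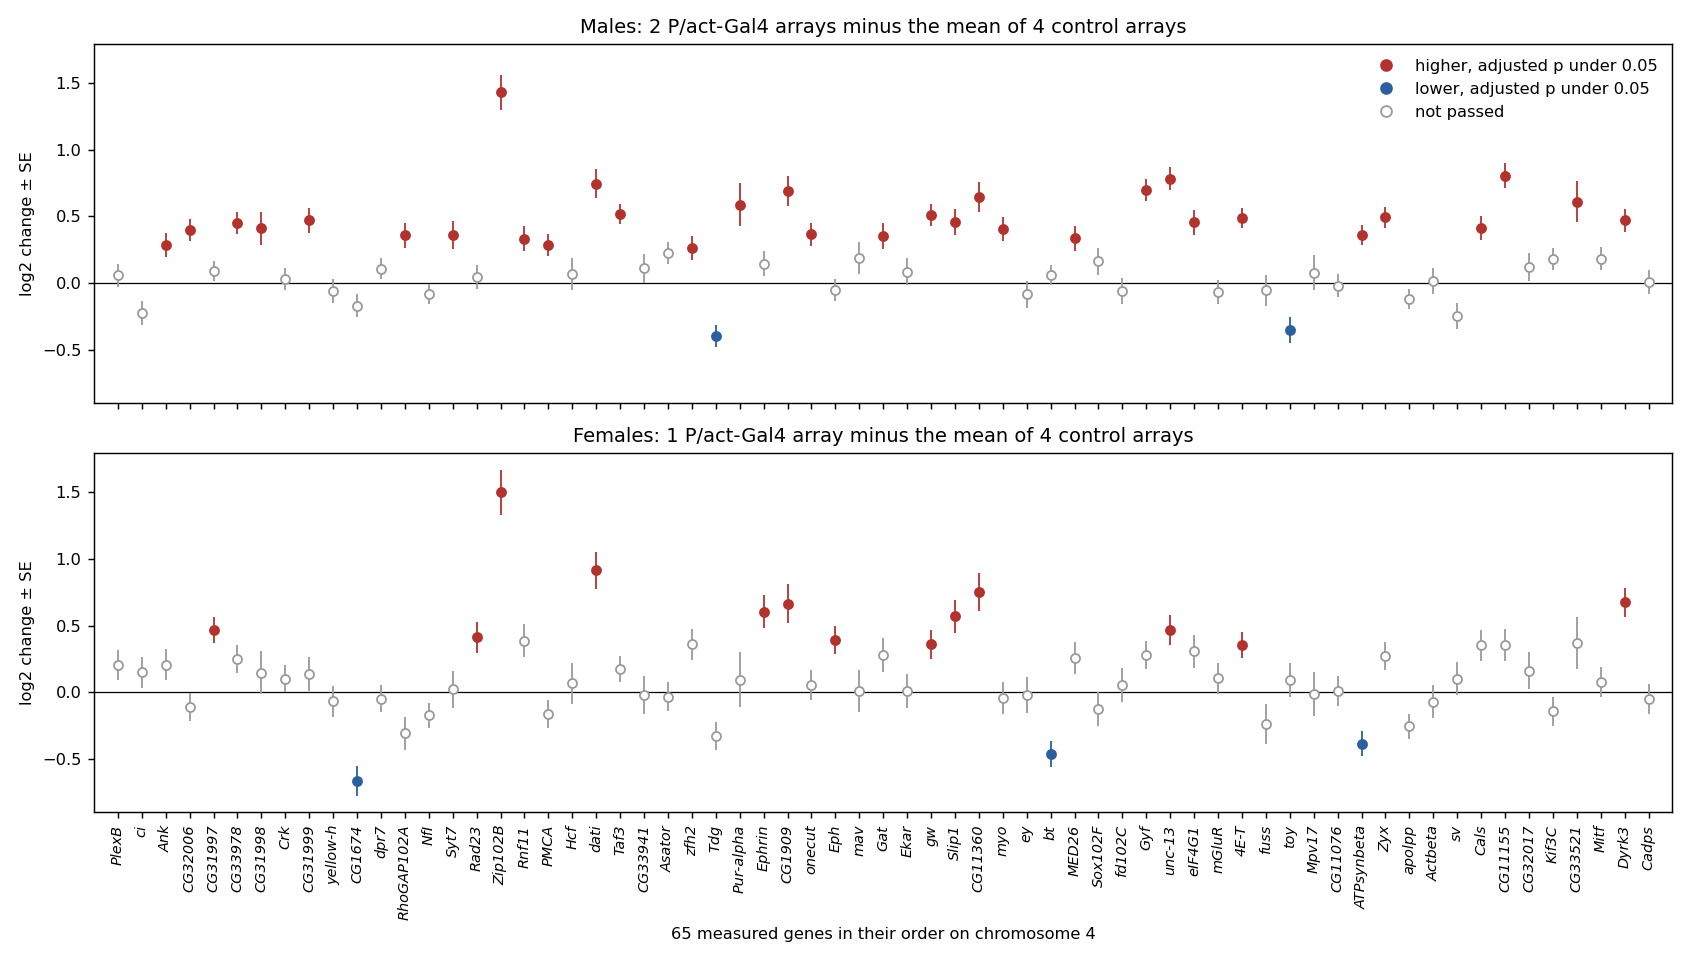
Log2 change of each of the 65 chromosome 4 genes, in their order on the chromosome, as P/act-Gal4 larvae minus the mean of the control genotypes, for males (top) and females (bottom). Points are estimates with their standard error, and filled points passed an adjusted p of 0.05. The 32 genes higher in males lie along the whole chromosome, and Zip102B stands above all others in both sexes.

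Dim and bright genes were counted apart. Among the 42 genes above the dim level, 25 were higher and 2 lower in males (26.6% and 21.6% of all genes above that level), with a median of 0.35 against 0.024 over all such genes. Among the 23 dim genes, 7 were higher and 0 lower (7.24% and 8.17% of all dim genes), with a median of 0.11 against -0.042 over all dim genes. Of the 32 higher genes, 22 were above the dim level both in P/act-Gal4 males and in the mean of the control males. For CG31998, CG1909, CG11360 and CG11155 the P/act-Gal4 male mean was above it and the mean of the controls was not, although the act-Gal4 males alone were above it for CG31998 and CG11155. CG32006, Syt7, zfh2, onecut, Gat and myo were dim on both sides, so that their changes are those of signals near the bottom of the arrays.

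Zip102B, a gene of the ZIP family of zinc transporters, had the largest change of the chromosome in both sexes. Its log2 levels were 5.77 and 6.14 in P/act-Gal4 males, against 5.21 and 5.17 in act-Gal4 males and 3.88 and 3.83 in P males. In females it was 6.03 with both insertions, against 5.11 and 5.55 in act-Gal4 and 3.82 and 3.63 in P controls. The arrays with both insertions were the highest in each sex, and the P controls were far below the act-Gal4 controls, at a dim level. Against the mean of the controls it was higher by 1.43 ± 0.132 in males (2.69-fold; adjusted p = 1.3e-05) and by 1.5 ± 0.17 in females (2.83-fold; adjusted p = 0.000126). Against the act-Gal4 control alone the changes were 0.76 in males (adjusted p = 0.00266) and 0.70 in females (adjusted p = 0.0321). With the controls pooled, where the gap between them counts as spread, the adjusted p was 0.130 in males and 0.358 in females.

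unc-13, which primes synaptic vesicles for release, was at 6.88 and 7.02 in P/act-Gal4 males, against 5.95 and 5.93 in act-Gal4 males and 6.40 and 6.40 in P males. In females it was 6.61 with both insertions, against 6.02 and 5.90 in act-Gal4 and 6.22 and 6.41 in P controls. Again the arrays with both insertions were above every control of their sex, but here the act-Gal4 control was the lower one. The change was 0.78 ± 0.0862 in males (adjusted p = 4.76e-05) and 0.47 ± 0.111 in females (adjusted p = 0.0141). Against the P control alone the female change was 0.29 and did not pass. It did not pass with pooled controls or in the fit of female arrays alone either, while the male change passed under every alternative.

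dati, a zinc finger transcription factor gene, was at 5.65 and 5.79 in P/act-Gal4 males, against 4.63 and 4.92 in act-Gal4 males and 5.22 and 5.12 in P males. In females it was 5.93 with both insertions, against 5.03 and 4.91 in act-Gal4 and 5.19 and 4.95 in P controls. The change was 0.75 ± 0.106 in males (adjusted p = 0.000274) and 0.91 ± 0.137 in females (adjusted p = 0.000849), with no overlap between the groups in either sex. A dim second probeset of dati changed by -0.15 in males, which did not pass.

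**Figure D2:**
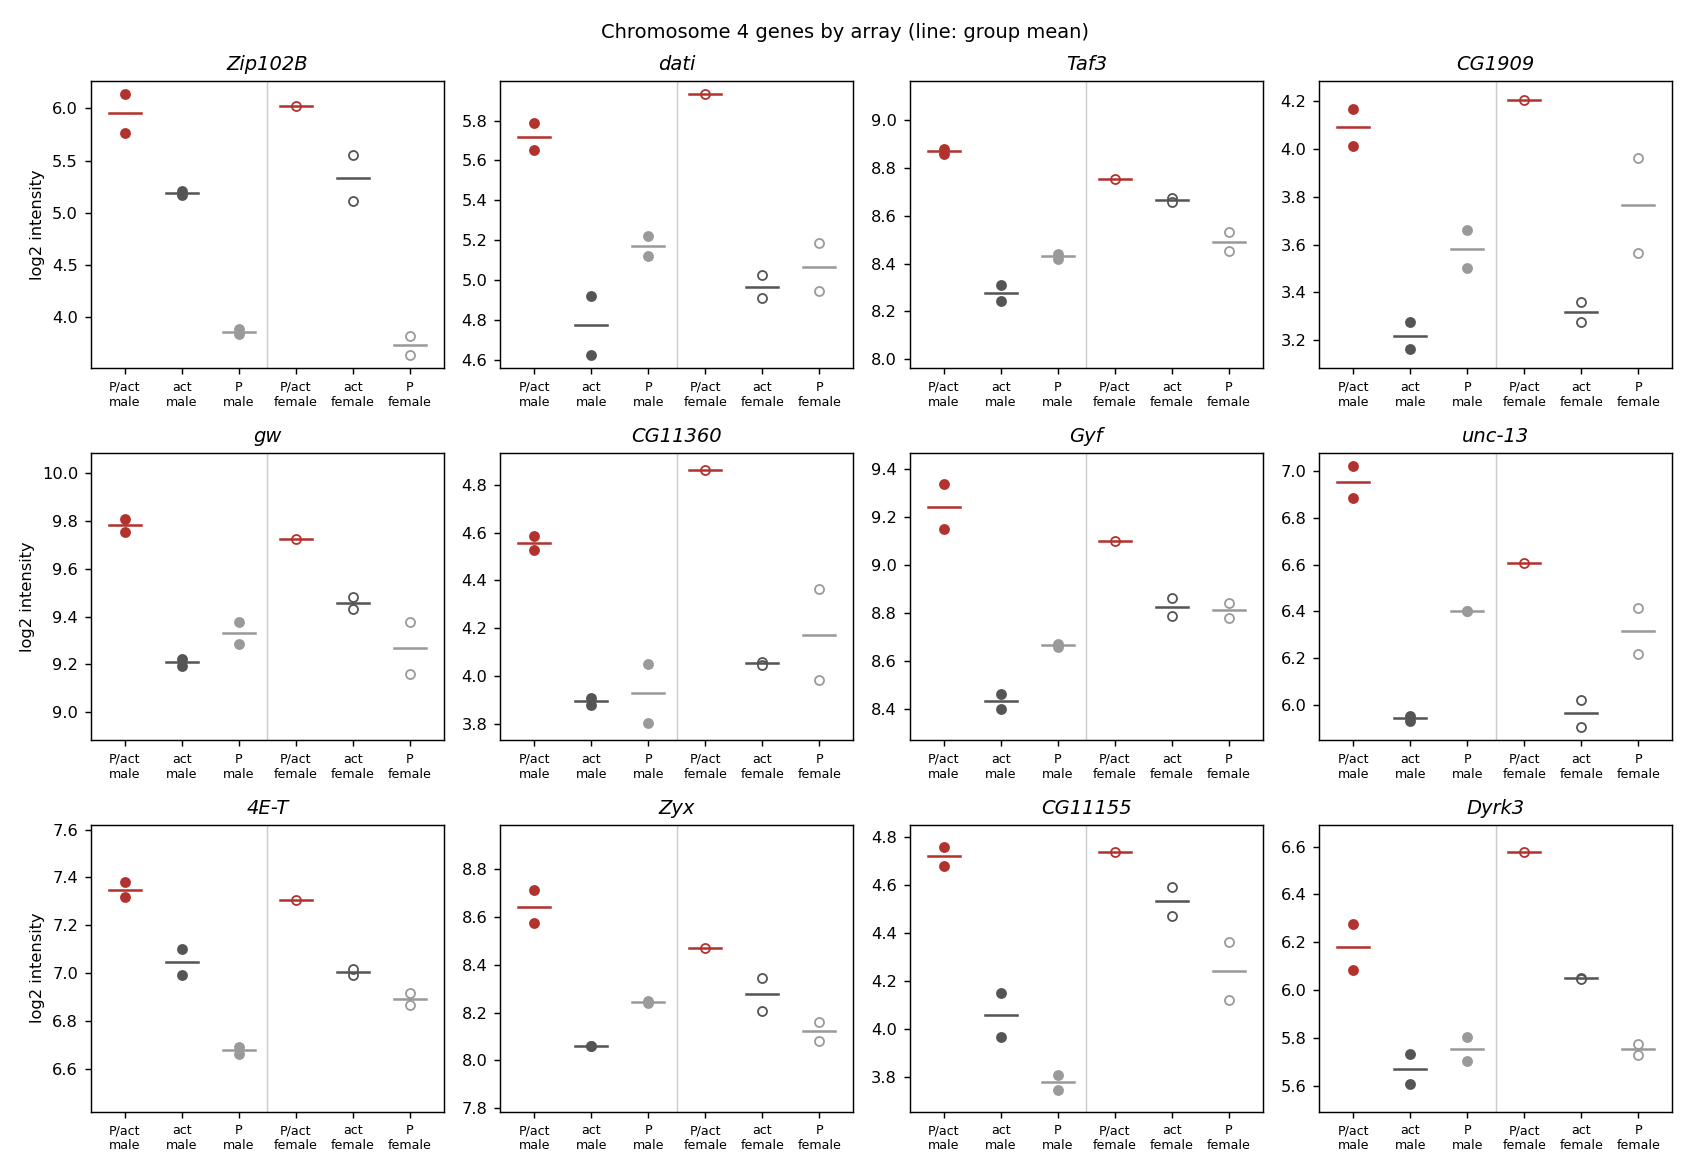
Log2 intensity of 12 chromosome 4 genes on every array, by genotype and sex, with group means as lines. Zip102B is followed by the 11 genes whose higher level in P/act-Gal4 males passed under every alternative setting, in chromosome order. In males, the 2 arrays with both insertions lie above all 4 control arrays in each panel.

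All 4 measured genes that act in translation and mRNA control were higher in males. This and the later role counts stand beside 32 of the 65 members and 19.7% of all genes that were higher in males. Lower in males were 2 members and 16.8% of all genes. Roles were completed after the values were available, so a count by role is no separate result. gw encodes GW182, a partner of Argonaute in microRNA silencing, and Gyf encodes a GYF-domain protein that represses translation. 4E-T encodes a partner of the cap-binding protein eIF4E, and eIF4G1 the scaffold of the initiation complex. Gyf was at 9.15 and 9.34 in P/act-Gal4 males, against 8.40 and 8.46 in act-Gal4 males and 8.67 and 8.66 in P males, a rise of 0.70 ± 0.0814 (adjusted p = 7.38e-05). gw was at 9.76 and 9.81 in P/act-Gal4 males, against 9.19 and 9.22 in act-Gal4 males and 9.29 and 9.38 in P males, a rise of 0.51 ± 0.084 (adjusted p = 0.000743). Both lie well above the dim level, and the spread within each group was smaller than the gap between P/act-Gal4 and either control. 4E-T was at 7.38 and 7.32 in P/act-Gal4 males, against 6.99 and 7.10 in act-Gal4 males and 6.69 and 6.66 in P males, a rise of 0.49 ± 0.0752 (adjusted p = 0.000483). eIF4G1 was at 8.73 and 8.90 in P/act-Gal4 males, against 8.47 and 8.42 in act-Gal4 males and 8.17 and 8.37 in P males, a rise of 0.45 ± 0.0947 (adjusted p = 0.00345). In females gw and 4E-T were higher as well, each by 0.36 (adjusted p = 0.0432 and 0.0275), while Gyf at 0.28 and eIF4G1 at 0.31 did not pass. The female changes of gw and 4E-T did not pass against the act-Gal4 control alone or after a further quantile normalization. They did not pass with pooled controls or in the fit of female arrays alone either. For Gyf, the female array was at 9.10, above its 4 controls at 8.79, 8.86, 8.84 and 8.78.

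Of 10 signalling genes, 6 were higher in males and 0 lower. Dyrk3, a dual-specificity protein kinase, was at 6.08 and 6.28 in P/act-Gal4 males, against 5.73 and 5.61 in act-Gal4 males and 5.70 and 5.81 in P males. It was higher by 0.47 ± 0.085 in males (adjusted p = 0.0014) and by 0.67 ± 0.11 in females (adjusted p = 0.00146), where the array with both insertions was at 6.58 against 6.05 and 6.05 in act-Gal4 and 5.73 and 5.78 in P controls. Zyx encodes zyxin, a LIM-domain protein of the actin cytoskeleton and of Hippo signalling. It was at 8.57 and 8.71 in P/act-Gal4 males, against 8.06 and 8.06 in act-Gal4 males and 8.24 and 8.25 in P males, and was higher by 0.49 ± 0.0806 (adjusted p = 0.000727). Slip1, named for the Slowpoke channel that its product binds, was at 6.82 and 7.09 in P/act-Gal4 males, against 6.36 and 6.38 in act-Gal4 males and 6.62 and 6.63 in P males, and was higher by 0.46 ± 0.0958 (adjusted p = 0.00354). It was also higher in females, by 0.57 ± 0.124 (adjusted p = 0.0086). The 3 TGF-beta ligand genes of the chromosome did not move as a block. myo, which encodes myoglianin, was higher in males by 0.41 (adjusted p = 0.00621) at a dim level, with 3.44 and 3.26 in P/act-Gal4 males against 2.98 and 2.98 in act-Gal4 and 2.86 and 2.96 in P controls. Actbeta changed by 0.013 and mav by 0.19 in males, and neither passed. The remaining higher genes were RhoGAP102A, a GTPase-activating protein, by 0.36, and Rnf11, a RING finger protein, by 0.33.

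Of 13 genes with roles at synapses or in neurons, 5 were higher in males and 0 lower: unc-13, Cals (calsyntenin; 0.41), Syt7 (synaptotagmin 7; 0.36), Gat (a GABA transporter; 0.35) and Ank (ankyrin; 0.28). The other 8, among them mGluR at -0.068 and Cadps at 0.0071, did not pass. Cals was at 8.005 and 8.20 in P/act-Gal4 males, against 7.63 and 7.66 in act-Gal4 males and 7.66 and 7.81 in P males (adjusted p = 0.00485). In females the 3 that were higher were Ephrin by 0.60, unc-13 by 0.47 and Eph by 0.39. Ephrin and Eph encode the fly's ephrin ligand and its receptor tyrosine kinase. Ephrin was at 5.66 on the female array with both insertions, against 5.24 and 5.01 in act-Gal4 and 4.87 and 5.09 in P controls (adjusted p = 0.00525). In males it was at 5.20 and 5.12 with both insertions, against 5.02 and 5.09 in act-Gal4 and 4.97 and 4.996 in P controls (0.14; adjusted p = 0.301). The sexes' changes differed by -0.46 for Ephrin and -0.44 for Eph, which did not pass (adjusted p = 0.0763 and 0.0578).

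Some neuron markers that lie on other chromosomes were higher in males too, a comparison in which 19.7% of all genes were higher and 16.8% lower. Of the 9 measured, 4 were higher in P/act-Gal4 males (elav 0.38, Rdl 0.54, Appl 0.66 and futsch 0.48) and 0 lower, and 1 was higher in females (futsch, 0.73). Against the P control alone, elav at 0.050 (adjusted p = 0.759) and Rdl at 0.13 (adjusted p = 0.598) did not pass in males, where the act-Gal4 control differed from the P control by -0.66 and -0.81. Appl and futsch passed against each control alone in males. Against the mean of the controls, nSyb at -0.050, para at -0.14, VGlut at 0.033, brp at 0.24 and ChAT at 0.24 did not pass in males. The log2 of the summed intensity of all 9 measured markers was 9.17 to 9.18 in P/act-Gal4 males, against 8.45 to 8.55 in act-Gal4 and 9.001 to 9.07 in P control males. In females it was 9.16 with both insertions, against 8.83 to 8.97 in act-Gal4 and 9.30 to 9.40 in P controls. Among the defining markers, elav and nSyb were above the dim level on every array and para, ChAT and VGlut were dim on every array. The part of these markers' shift in the synaptic genes was not tested.

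Of 16 genes of transcription and development, 6 were higher in males and 1 was lower. The higher ones were dati, Pur-alpha (0.59), Taf3 (0.52), onecut (0.36), MED26 (0.33) and zfh2 (0.26). Taf3 encodes a subunit of the general factor TFIID and MED26 a subunit of Mediator. Taf3 was at 8.86 and 8.88 in P/act-Gal4 males, against 8.25 and 8.31 in act-Gal4 males and 8.44 and 8.42 in P males, with an SE of the change of 0.0734 (adjusted p = 0.000274). Pur-alpha, a gene for a protein that binds single-stranded nucleic acids, was at 5.75 and 5.87 in P/act-Gal4 males, against 5.35 and 5.47 in act-Gal4 males and 4.95 and 5.11 in P males (SE 0.159; adjusted p = 0.0152). toy, a Pax6 gene that acts upstream of ey in the eye, was the lower one. It was at 4.57 and 4.78 in P/act-Gal4 males, against 4.96 and 5.13 in act-Gal4 males and 5.06 and 4.96 in P males, and fell by 0.35 ± 0.0977 (adjusted p = 0.0169). It was also the single member lower than each control taken alone. The patterning genes ci, the transcription factor of Hedgehog signalling, at -0.22, sv, a Pax2 gene, at -0.25, and ey at -0.085 did not pass. Among these 16 genes, dati was the one that was higher in females.

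Of 8 genes of metabolism, transport and DNA repair, 3 were higher in males and 1 lower. Besides Zip102B these were ATPsynbeta, the catalytic subunit of the mitochondrial ATP synthase, and PMCA, the calcium pump of the plasma membrane. Tdg, a thymine DNA glycosylase gene, fell by 0.40 ± 0.081 (adjusted p = 0.00291). Its levels were 4.85 and 4.97 in P/act-Gal4 males, against 5.61 and 5.59 in act-Gal4 males and 5.03 and 4.998 in P males, and against the P control alone the change of -0.11 did not pass. Of the 2 probesets that Tdg shares with a non-coding RNA, the brighter was higher by 0.35 in males and the other, at 0.11, did not pass. In females, Rad23, whose product acts in nucleotide excision repair and proteasomal delivery, was higher by 0.41 ± 0.117 (adjusted p = 0.0339).

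Of 13 genes with no role assigned, 8 were higher in males and 0 lower. CG11155 was at 4.68 and 4.76 in P/act-Gal4 males, against 3.96 and 4.15 in act-Gal4 males and 3.81 and 3.75 in P males, a rise of 0.80 ± 0.0945 (adjusted p = 7.62e-05). CG1909 was at 4.01 and 4.17 in P/act-Gal4 males, against 3.16 and 3.27 in act-Gal4 males and 3.66 and 3.50 in P males, a rise of 0.69 ± 0.112 (adjusted p = 0.00068). CG11360 was at 4.58 and 4.53 in P/act-Gal4 males, against 3.88 and 3.91 in act-Gal4 males and 3.80 and 4.05 in P males, a rise of 0.65 ± 0.11 (adjusted p = 0.000911). In all 3 genes the groups did not overlap, and the controls lay at or near the dim level. CG33521 was higher by 0.61 ± 0.151 (adjusted p = 0.00954). CG11360 and CG1909 were also higher in females, by 0.75 (adjusted p = 0.00382) and 0.66 (adjusted p = 0.00865), and so was CG31997, by 0.47 (adjusted p = 0.00727).

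The chromosome was further read against each control alone, because the 2 controls differed from each other. In males, 30 genes were higher and 1 lower than the P control alone (18.3% and 14.1% of all genes), and 23 were higher and 4 lower than the act-Gal4 control alone (18.2% and 17.1% of all genes). Of the 65 genes, 19 were higher than both the act-Gal4 and the P control, against 11% of all genes. Lower than both was 1 gene, against 8.43% of all genes. All 19 were among the 32 genes called higher in males. Of these 32, another 8 passed against the P control only, among them ATPsynbeta, Pur-alpha, PMCA and Ank. A further 4 passed against the act-Gal4 control only (CG33978, Rnf11, onecut and MED26). zfh2 passed against neither alone. Both P/act-Gal4 arrays lay above all 4 control arrays for 34 members and below them for 5, against 23.0% and 22.0% of all genes. Of the genes called higher, 29 were among those 34.

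Rnf11 shows what the choice of control does. It was at 6.45 and 6.68 in P/act-Gal4 males, against 5.69 and 5.88 in act-Gal4 males and 6.70 and 6.68 in P males. It was thus above the act-Gal4 control and level with the P control, against which its change was -0.12.

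Between the controls, act-Gal4 males had 10 chromosome 4 genes higher and 5 lower than P males (13.3% and 9.85% of all genes), with a median difference of -0.012. After a further quantile normalization the split was 9 higher and 7 lower (all genes 1428 and 1339, against 1588 and 1180 before it). The largest positive differences were Zip102B at 1.33, CG1674 at 1.22 and ATPsynbeta at 0.65. The negative ones were Rnf11 at -0.90, CG33978 at -0.48, unc-13 at -0.46, MED26 at -0.46 and dati at -0.40. In females, act-Gal4 had 3 genes higher and 8 lower than P (9.95% and 10% of all genes), with a median difference of 0.0090. Zip102B at 1.61, apolpp, the precursor of the lipid carrier apolipophorin, at 0.74 and mGluR at 0.34 were higher. RhoGAP102A at -0.82, Asator, a protein kinase gene, at -0.77 and ATPsynbeta at -0.71 were the lowest. The ATPsynbeta probeset used thus differed between the controls in opposite directions in the 2 sexes. The gene's other probeset, also above the dim level, differed between the controls by 0.079 in males (adjusted p = 0.722) and -0.081 in females (adjusted p = 0.69), and neither passed.

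Along the chromosome, the genes higher in males were not confined to a stretch. Divided by order into sections of 22, 21 and 22 genes, 12, 10 and 10 were higher in males, with medians of 0.28, 0.23 and 0.18. The lower genes Tdg and toy lay in the middle and last sections. The longest row of neighbouring measured genes that were all higher in males was gw, Slip1, CG11360 and myo, 4 genes, of which gw, Slip1 and CG11360 were also higher in females. Zip102B, Rnf11 and PMCA formed a row of 3, as did Gyf, unc-13 and eIF4G1.

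In females, on the single P/act-Gal4 array, 13 genes were higher and 3 lower than the mean of the controls (11.3% and 8.34% of all genes). The median change was 0.10, against -0.0061 over all genes, and 44 of the 65 genes lay above 0 (67.7%, against 49.1%). The fit assumes that this array varies like those of the other groups. A further quantile normalization gave 10 higher and 5 lower (1174 and 1132 of all genes, against 1352 and 999 before it). The fit of female arrays alone gave 4 higher and 1 lower (5.86% and 4.30% of all genes). Pooled controls gave 4 higher and 0 lower (1.91% and 1.03% of all genes). The array lay above all 4 controls for 31 members and below them for 8, against 27.2% and 25.4% of all genes. Higher than each control alone were 7 members (5.72% of all genes): Zip102B, dati, CG11360, Dyrk3, Ephrin, Slip1 and CG31997. Lower than each control alone were 2 members, CG1674 and bt, against 3.74% of all genes.

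Of the 32 genes higher in males, 27 also had a change above 0 in females, against 73.0% of all genes higher in males. The genes that passed in both sexes were 9 of the 65, against 6.43% of all genes: Zip102B, dati, CG1909, gw, Slip1, CG11360, unc-13, 4E-T and Dyrk3. They are 28.1% of those higher in males and 69.2% of those higher in females. Over all genes, 770 were higher in both sexes, of 2366 higher in males (32.5%) and 1352 higher in females.

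**Figure D3:**
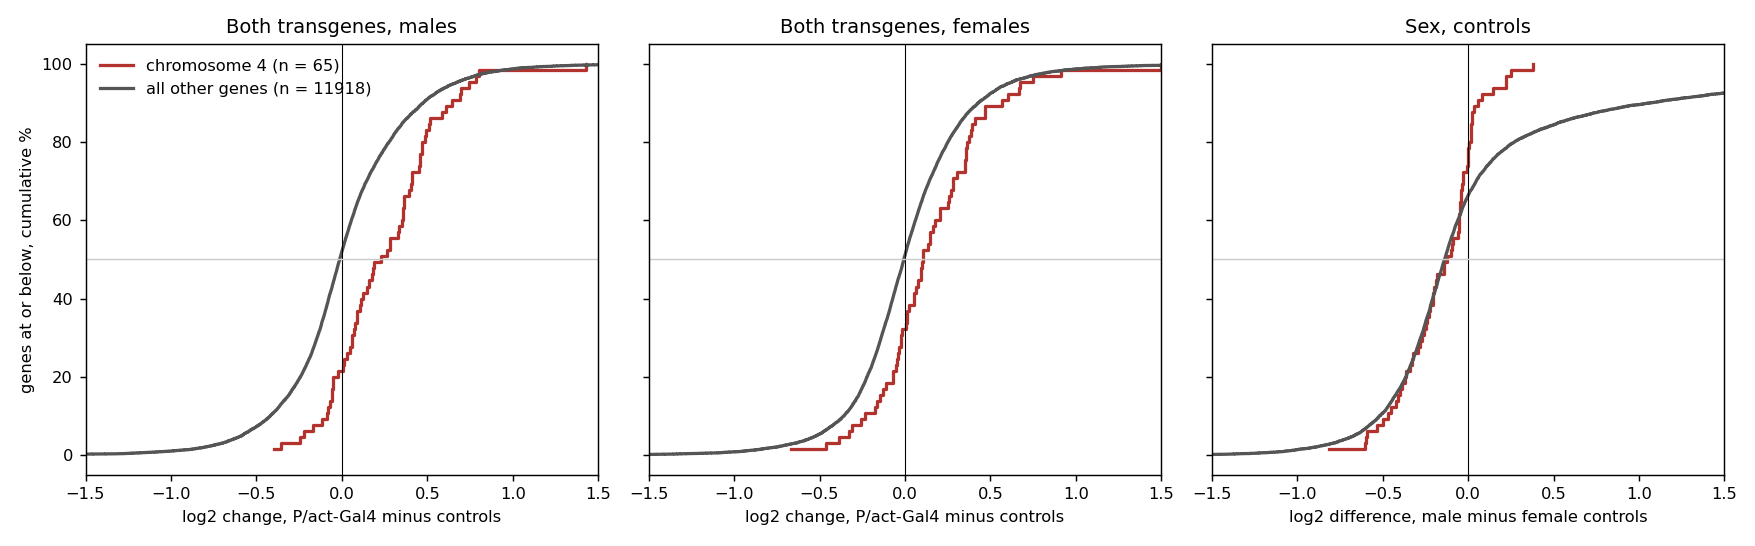
Cumulative share of genes by log2 change, for the 65 chromosome 4 genes and the 11918 other genes: P/act-Gal4 minus controls in males (left) and in females (middle), and male minus female controls (right). The horizontal axis is cut at -1.5 and 1.5. The chromosome 4 curve lies to the right of the other genes over most of its range in males, with a median of 0.23, less so in females, with a median of 0.10, and in the sex comparison it lacks the right-hand tail.

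The changes in the 2 sexes were also tested against each other. In 5 genes the male change was more positive than the female one and in 0 genes more negative, against 7.48% and 7.74% of all genes. The median difference was 0.090, against -0.0053 over all genes. With arrays centred on a common median these were 4 and 1 (782 and 1075 of all genes, against 896 and 928 before). Without the second P/act-Gal4 male array 1 gene passed, and with pooled controls 0 passed.

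ATPsynbeta was at 9.03 and 8.99 in P/act-Gal4 males, against 8.97 and 8.97 in act-Gal4 males and 8.30 and 8.35 in P males. It was at 9.08 in the P/act-Gal4 female, against 9.09 and 9.12 in act-Gal4 females and 9.83 and 9.80 in P females. The change was 0.36 in males and -0.38 in females, and the difference of 0.75 ± 0.118 passed (adjusted p = 0.00194). In both sexes the array values with both insertions were close to those of the act-Gal4 control, and the P control stood apart. A second, less bright probeset of the gene was lower in both sexes, by -0.34 in males and -0.45 in females, with a difference of 0.11 (adjusted p = 0.761).

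RhoGAP102A was at 5.36 and 5.48 in P/act-Gal4 males, against 5.07 and 5.11 in act-Gal4 males and 5.05 and 5.03 in P males. It was at 5.35 in the P/act-Gal4 female, against 5.42 and 5.09 in act-Gal4 females and 6.06 and 6.08 in P females. The difference between the sexes' changes was 0.67 ± 0.156 (adjusted p = 0.0167), and here too the P females stood above all other arrays.

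bt encodes projectin, a giant protein of muscle. It was at 10.68 and 10.75 in P/act-Gal4 males, against 10.72 and 10.71 in act-Gal4 males and 10.58 and 10.61 in P males. It was at 10.52 in the P/act-Gal4 female, against 10.91 and 10.92 in act-Gal4 females and 10.997 and 11.09 in P females. It fell by 0.46 ± 0.0956 in females (adjusted p = 0.00653), and the male change exceeded the female one by 0.52 (adjusted p = 0.016).

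CG1674 was at 6.53 and 6.50 in P/act-Gal4 males, against 7.28 and 7.30 in act-Gal4 males and 5.98 and 6.16 in P males, so that P/act-Gal4 males lay between the controls. It was at 6.61 in the P/act-Gal4 female, below act-Gal4 females at 7.42 and 7.34 and P females at 7.08 and 7.25. The difference of 0.50 (adjusted p = 0.0401) was -0.0072 when the act-Gal4 control alone was used. CG32006, the other gene that passed, with 0.51 (adjusted p = 0.0322), was dim in every group, with levels of 2.54 to 3.44.

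**Figure D4:**
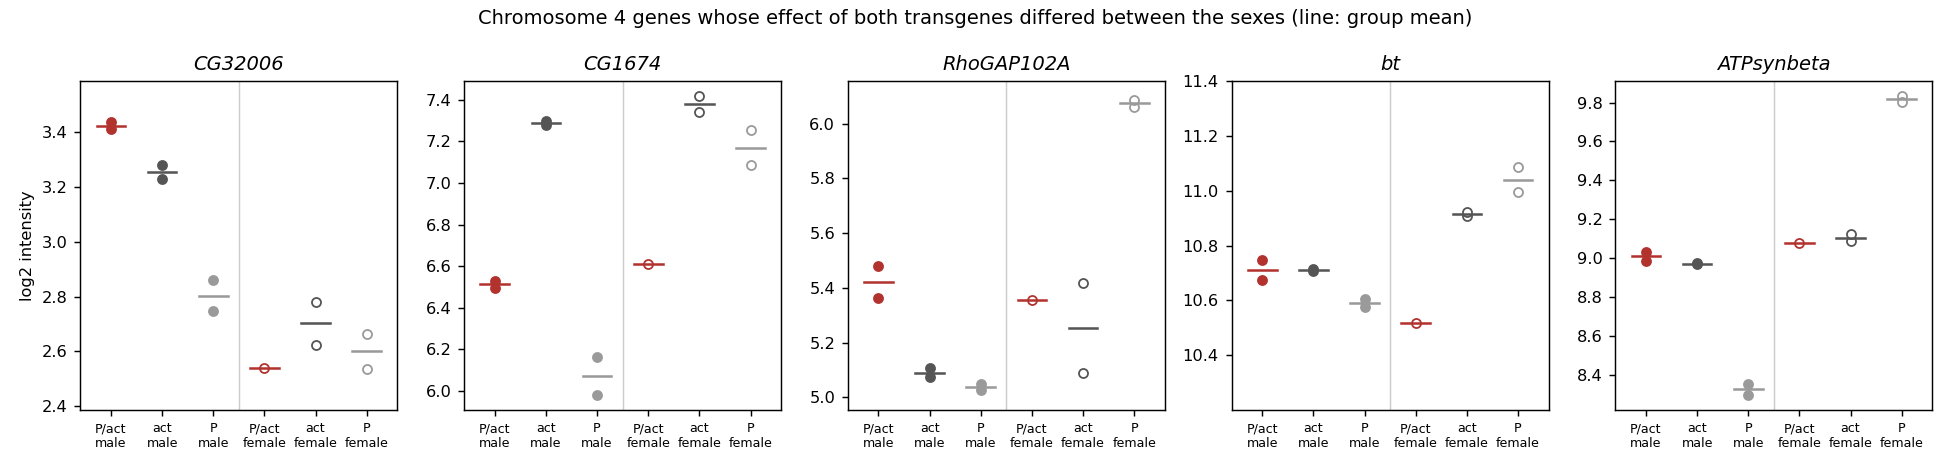
Log2 intensity on every array of the 5 chromosome 4 genes whose change with both insertions differed between the sexes, by genotype and sex, with group means as lines. In ATPsynbeta and RhoGAP102A the 2 P control female arrays lie above all others, and in CG1674 the P/act-Gal4 males lie between their 2 controls.

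Between males and females of the control genotypes, 4 chromosome 4 genes were higher in males and 27 were lower, against 22.4% and 40.9% of all genes. The median difference was -0.12 on chromosome 4 and -0.14 over all genes. With arrays centred on a common median, which moved the median of all genes to -0.30, the split was 1 higher and 47 lower. Over all genes 2195 were then higher and 7650 lower, against 2688 and 4904 before, so the calls moved towards lower there too. At least 2-fold higher in males were 0 of the 65 members, against 10.4% of all genes, and 0 were at least 2-fold lower, against 1.42% of all genes. The higher members were CG32006 at 0.38, yellow-h at 0.25, Rad23 at 0.22 and Slip1 at 0.22. The largest negative differences were ATPsynbeta at -0.81, apolpp at -0.60, RhoGAP102A at -0.60, CG1674 at -0.59, Pur-alpha at -0.54, CG31998 at -0.50, CG11155 at -0.47, mav at -0.45, CG31999 at -0.42 and CG33521 at -0.41. apolpp was at 11.59 and 11.59 in act-Gal4 males and 11.15 and 11.23 in P males, against 12.33 and 12.38 in act-Gal4 females and 11.60 and 11.64 in P females. Within each genotype its males were thus below its females. apolpp, CG11155 and CG31999 passed within each control genotype taken alone. Within the act-Gal4 control, ATPsynbeta at -0.13, RhoGAP102A at -0.16, CG1674 at -0.089 and CG31998 at 0.085 did not pass. Pur-alpha and CG33521 did not pass there either, and mav did not pass within the P control. unc-13 at 0.032, dati at -0.045 and Zip102B at -0.0055 did not pass between the sexes.

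More than 1 single-gene probeset was present for 13 members, with 17 further probesets. Among the 10 of these genes that were called in males there were 12 further probesets, of which 5 passed in the same direction, 1 passed in the opposite direction and 6 did not pass, all 6 of them dim. The 5 belonged to CG11155 (0.48), CG33978 (0.89), Rnf11 (0.69) and PMCA (0.53 and 1.35), and the opposite one to ATPsynbeta. For PMCA the probeset used had the smallest male change, 0.28. Its probeset with a mean level of 5.25 was at 6.08 in P/act-Gal4 males, against 4.84 in act-Gal4 and 4.635 in P control males (group means).

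Chromatin proteins known to act on chromosome 4 were read beside its genes. Of 12 listed, 9 were measured, and egg, Su(var)3-9 and G9a were not. In males 4 were higher and 2 lower, where 19.7% and 16.8% of all genes were. Pof was higher by 0.42 (adjusted p = 0.00565), Su(var)2-HP2, whose product binds HP1, by 0.47, wde, a cofactor of the methyltransferase encoded by egg, by 0.29, and Dp1 by 0.51. The HP1 gene and HP4, which encodes a protein that binds HP1, were the lower ones, with HP4 at -0.81 ± 0.106. In females 3 were higher and 0 lower, where 11.3% and 8.34% of all genes were. These were Pof by 0.41 (adjusted p = 0.0413), Su(var)2-HP2 by 0.43 and ADD1 by 0.73. Pof in females, at 0.29 against the act-Gal4 control alone, did not pass there. In males wde, at 0.24 against the P control alone, did not pass there. The other calls of this list passed against each control alone. Pof itself differed far more between the sexes than between genotypes. It averaged 8.77 in P/act-Gal4 males, 8.28 in act-Gal4 males and 8.43 in P males, against 4.29 in the P/act-Gal4 female, 3.998 in act-Gal4 females and 3.77 in P females, where it was near the dim level.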

How the data were processed

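Total RNA of whole larvae was hybridised to 11 Affymetrix arrays, 1 sample each. The deposited values are intensities on the linear scale, which the authors made with RMA per the submitters' processing notes; the notes give no version or options, and the depth of an array has no counterpart here, so that the number of arrays limits the precision. From these values log2 was taken with no pseudocount and no filter. Of 18952 probesets, 183 controls were left out and 18769 were tested, and 13647 of these name a single gene, 402 several and 4720 none in the platform table.

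Groups (6) come from the sample titles; strain and description labels conflict with titles for some arrays and were not used. A limma fit of group means (version 3.58.1, under R 4.3.3; lmFit, eBayes; 5 residual and 6.29 prior degrees of freedom) used all 11 arrays, with Benjamini-Hochberg adjustment over the tested probesets in each of 6 comparisons. Errors are standard errors. The procedure was tested on simulated data. Figures were drawn with matplotlib 3.10.9.

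The text names Zip102B, unc-13 and dati, up to 10 rises and 10 falls per comparison, up to 4 members per role, members that differ between the sexes, and listed genes; others were named after their values were seen. Members, lists and roles were chosen with earlier results of these data known, and roles were completed after the values were available. Alternatives were trend and robust fitting, weights for arrays, bright probesets, other scalings, mean of probesets, an adjusted p of 0.1, each array left out, each control alone, pooled controls and arrays of 1 sex. No sequence was used here.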

Additional observations from a re-analysis of the deposited data

Results flagged for a closer look

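The difference between the change in males and the change in females, tested as an interaction in the limma fit, marked 5 chromosome 4 genes. In each of the 5 the male change was the more positive one. Over all genes 7.48% were called in that direction and 7.74% in the other. The male minus female effect was 0.75 for ATPsynbeta, 0.67 for RhoGAP102A, 0.52 for bt, 0.51 for CG32006 and 0.5 for CG1674. The female effect rests on 1 array. None of the 5 genes passed against the act-Gal4 control alone or with pooled controls. For ATPsynbeta a second probeset did not pass this test, and for CG32006 all levels were dim.

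PMCA passed it with its further probesets and not with the one used. The male minus female effect was 0.75 for the probeset with a mean level of 7.25 and 0.97 for that with a mean of 5.25, against 0.45 for the brightest one (adjusted p = 0.0532).

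Genes on other chromosomes that were read beside them also differed between the sexes. Among chromatin proteins, the male minus female effect was -0.53 for the HP1 gene and -0.96 for HP4. It was 0.61 for the neuron marker Appl, and -0.89 for Fbp1 and -0.71 for Sgs3, markers of late larval fat body and salivary gland. Fbp1 was at 12.90 on the P/act-Gal4 female array, against 12.77 in act-Gal4 and 11.31 in P control females (group means). Sgs3 was at 12.98 on that array, against 12.91 in act-Gal4 and 12.14 in P control females (group means).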

How the results depend on the processing

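No paired analysis was possible because the replicate numbers were given in accession order and pair no arrays. The counts of calls below are of members only, and calls over all genes moved with the setting as well. With pooled controls, 9.21% of all genes were higher and 7.51% lower in males, against 19.7% and 16.8% in the main fit. A changed count is thus by itself no result about chromosome 4. Without P/act-Gal4 male replicate 2, the 34 calls in males came to 18. Over all arrays left out in turn, calls numbered 18 to 34 in males (median change 0.19 to 0.32), 14 to 20 in females (0.0996 to 0.13), 1 to 7 for the difference between the sexes (0.063 to 0.12), 8 to 17 between the male controls (-0.012 to 0.025), 5 to 11 between the female controls (-0.049 to 0.0090) and 25 to 31 between the sexes in controls (-0.14 to -0.10). The low counts came without P/act-Gal4 male replicate 2 (difference), act-Gal4 control male replicate 2 (male controls) and act-Gal4 control female replicate 1 (female controls); without either act-Gal4 control male array or the other act-Gal4 female array the female controls gave 7, and without either act-Gal4 control male array or P/act-Gal4 male replicate 1 the difference gave 3. Pooled controls gave 17 calls in males, 4 in females and 0 for the difference. Female arrays alone gave 5 in females and 5 between the female controls. For the difference, trend and robust fitting gave 11 calls, bright probesets 11, an adjusted p of 0.1 gave 13 and the P control alone 9, against 5. Between the female controls, trend and robust fitting gave 17 calls and array weights 6, against 11. Between the sexes, a common median gave 48 calls, the act-Gal4 control alone 15 and the P control alone 20, against 31. Bright probesets alone moved the median change to 0.35 in males, 0.23 in females, 0.062 between the male controls and -0.20 between the sexes, where a common median gave -0.28. Among values called in the main fit or in the alternative, the sign turned in 9. Sign changes of values called in neither were not counted. In males these were Rnf11 (-0.12) and CG1674 (0.44) against the P control alone. For the difference it was CG1674 (-0.0072) against the act-Gal4 control alone. Between the sexes they were Asator (0.084), CG31998 (0.085) and Tdg (0.024) within the act-Gal4 control and Dyrk3 (0.0011) within the P control. PlexB turned there with quantile normalization (-0.17) and with the mean of its probesets (-0.15). The cause was not tested. Of the 34 calls in males, 11 passed under every alternative that could give them (4E-T, CG11155, CG11360, CG1909, dati, Dyrk3, gw, Gyf, Taf3, unc-13 and Zyx), and so did 2 of 16 in females (CG11360 and Dyrk3), 0 of 5 for the difference, 7 of 15 and 5 of 11 between male and female controls, and 5 of 31 between the sexes.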
